A study of Mus musculus with 6 samples.

Results

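The genes described here are the matrix metalloproteases (MMPs), the ADAMTS proteases, the ADAMTS-like proteins and the tissue inhibitors of metalloproteases (TIMPs). They were taken by symbol from the gene names of the deposited matrices, which gave 51 of 33697 genes, namely 23 Mmp, 19 Adamts, 5 Adamtsl and 4 Timp genes. Their transcripts were measured in live tdTomato+ lamina propria cells sorted from Flare-TSLP mice. In these mice the red fluorescent protein tdTomato is translated from the transcript of the Tslp locus, so the sort keeps cells in which the locus is active, and the line descends from 1 targeted stem cell clone. All libraries came from the same reporter allele, which also carries loxP sites, on a C57BL/6 background, without infection or drug treatment. The methods give adult mice of both sexes for pooled experiments. There were 6 libraries. The proximal small intestine (jejunum) and the distal small intestine (ileum) gave 2 each, while cecum and large intestine gave 1 each. Cells sorted as tdTomato-negative were not analysed here. No filter on tdTomato transcripts was applied after the sort, whereas the study used one, so classes reported here can hold cells that the study removed.

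MMPs are zinc-dependent enzymes that cut collagens, proteoglycans, adhesion proteins and latent growth factors outside the cell. Most are secreted as inactive proforms, whereas MMP14, MMP15, MMP16, MMP17 and MMP25 are held at the membrane. The ADAMTS enzymes are secreted proteases that mature fibrillar collagens, trim versican and aggrecan, or act on fibrillin microfibrils and von Willebrand factor. The ADAMTS-like proteins share their ancillary domains and lack the catalytic domain. TIMPs bind the active site of MMPs, and TIMP3, which stays bound to the matrix, also inhibits several ADAM and ADAMTS enzymes. In the intestine, stromal cells, endothelium and macrophages are known sources of these proteins, and MMP7 is known as a Paneth cell enzyme.

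The libraries held between 109675337 and 206827504 UMIs (molecular tags, each marking 1 captured transcript) on genes. After the cell filters and the removal of predicted doublets, 93558 cells remained, with 11174 to 19073 in a library and a median depth of 6606.5 to 9233 UMIs per cell. Cell barcodes shared between any pair of libraries numbered 36 to 100. Each library carried 3 hashtags. The study describes several biological samples per tissue and hashtags for multiplexing, but no source used here pairs a hashtag with a mouse, so a library was taken as 1 sample and p-values measure the spread between libraries. Classes were gated on marker genes, none of which belongs to the 51 genes, and are named "-like" for that reason. The gates named 89524 cells, of which 68925 were fibroblast-like and 15178 lymphatic endothelial-like. Among fibroblast-like cells, 38279 were trophocyte-like (Grem1, Ackr4 and related markers of the crypt base), 9953 subepithelial fibroblast-like (Wnt4, Procr and others), 3686 telocyte-like (Foxl1, Bmp7, Wnt5a and others) and 3302 universal fibroblast-like (Pi16, Dpp4 and others). A gate is a range and not a type, since 1343 telocyte-like cells carried exactly the required number of markers and 2152 cells fell 1 marker short. Among fibroblast-like cells these numbers were 3917 and 4772 for the subepithelial gate and 2715 and 7246 for the universal gate. For the trophocyte gate they were 14811 and 9730. The unit of levels and plots is CPM, which scales the UMIs of a class in a library to a total of 1000000. They come from transcript ends, so that they are compared between cells for a given gene and not between genes.

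Of the 51 genes, 49 reached at least 10 UMIs in the gated cells, while Mmp1b had 2 UMIs and Mmp20 had 5. The summed level of the 51 genes was 5168 ± 373 CPM (SD, n = 4) in fibroblast-like cells of the small intestine, 4325 in those of the cecum and 3397 in those of the large intestine. In lymphatic endothelial-like cells it was 5565 ± 739 (SD, n = 6), and in universal fibroblast-like cells 6197 ± 421 (SD, n = 6). It was 5172 ± 479 in trophocyte-like, 4099 ± 914 in subepithelial fibroblast-like, 4075 ± 569 in mural-like and 3475 ± 662 in telocyte-like cells (SD, n = 6).

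**Figure D1:**
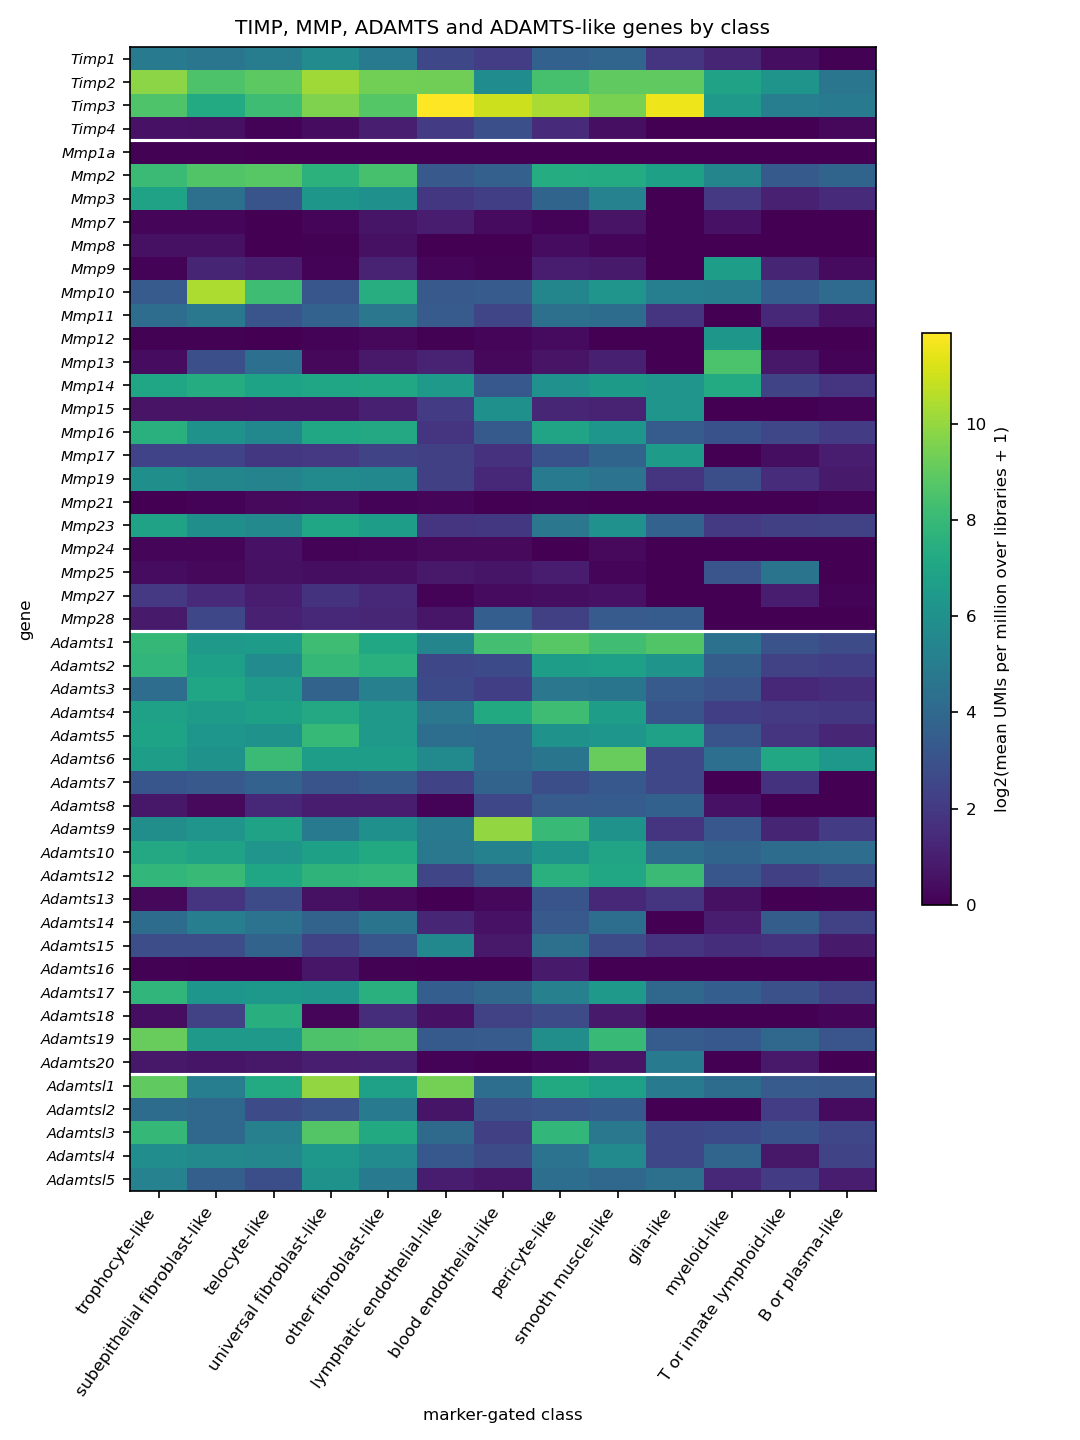
Mean CPM over libraries for the TIMP, MMP, ADAMTS and ADAMTS-like genes (rows) in the marker-gated classes (columns), on a log2(value + 1) colour scale, with white lines between the families. Timp3 was highest in lymphatic endothelial-like cells (3805 CPM), Mmp10 in subepithelial fibroblast-like cells (1396 over 6 libraries) and Adamts9 in blood endothelial-like cells (1010).

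Of the 23 Mmp genes, 10 lie next to each other on chromosome 9 in the order Mmp13, Mmp12, Mmp1b, Mmp3, Mmp1a, Mmp10, Mmp8, Mmp27, Mmp20 and Mmp7 (GRCm39, GENCODE M39). Mmp10, which encodes stromelysin 2, spans 7502353 to 7510241 on the plus strand, and its neighbours Mmp3 (stromelysin 1, 7445822 to 7455975) and Mmp13 (collagenase 3, 7272514 to 7283331) lie on the same strand. Promoters of this group were searched for the AP-1 letters TGAGTCA on both strands (TGAGTCA or TGACTCA as read), since AP-1 control of MMP promoters is textbook knowledge. In RefSeq promoters, from 250 bases before to 50 bases after the start, 1709 of 32851 promoters (5.20%), or 1607 of 27025 genes, held the letters. Among the 36 genes of these families with a promoter in that table, 7 held them, namely Mmp10, Mmp12, Mmp13, Mmp1a, Mmp1b, Mmp3 and Mmp7, which all lie in the chromosome 9 group. A match describes letters and is not evidence of binding. The windows of the 3 genes that separate the stromal classes below, and of Mmp12 and Mmp7 for comparison, are printed 5′ to 3′ with the matching letters in capitals. Coordinates are those of the exact match of each window in GRCm39, plus strand.
Mmp13, chr9:7272469-7272495: cccaaagtggTGACTCAtcactatcat
Mmp12, chr9:7347320-7347346: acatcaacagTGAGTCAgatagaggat
Mmp3, chr9:7445766-7445792: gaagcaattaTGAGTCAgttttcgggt
Mmp10, chr9:7502270-7502296: agcacccatgTGAGTCAtgcttagtga
Mmp7, chr9:7692018-7692044: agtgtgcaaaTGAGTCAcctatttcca
The letters began 35 bases before the RefSeq start site in Mmp13, 44 in Mmp12, 46 in Mmp3 and 63 in both Mmp10 and Mmp7. For Mmp10 the RefSeq start differs from the GENCODE start given above.

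The genes of the group were highest in different classes. In the small intestine Mmp10 was at 2075 ± 156 CPM (SD, n = 4) in subepithelial fibroblast-like cells, Mmp3 at 140 ± 21.9 in trophocyte-like and 94.3 ± 6.78 in universal fibroblast-like cells, and Mmp13 at 364 ± 280 in myeloid-like cells. Mmp12, the macrophage metalloelastase, was at 76.9 in myeloid-like cells and at 0.363 or below in every other class drawn. Mmp7 was at 1.35 ± 2.33 in lymphatic endothelial-like cells of the small intestine and at 0.822 or below in the other classes drawn, while free RNA of these libraries held it at 29.2, 14.8, 0.659 and 4.40 and epithelial-like cells of the large intestine, not drawn, were at 25.4. No expression in the drawn classes is read from these values. The gated cells held 192 myeloid-like cells in all, so those values rest on few cells.

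**Figure D2:**
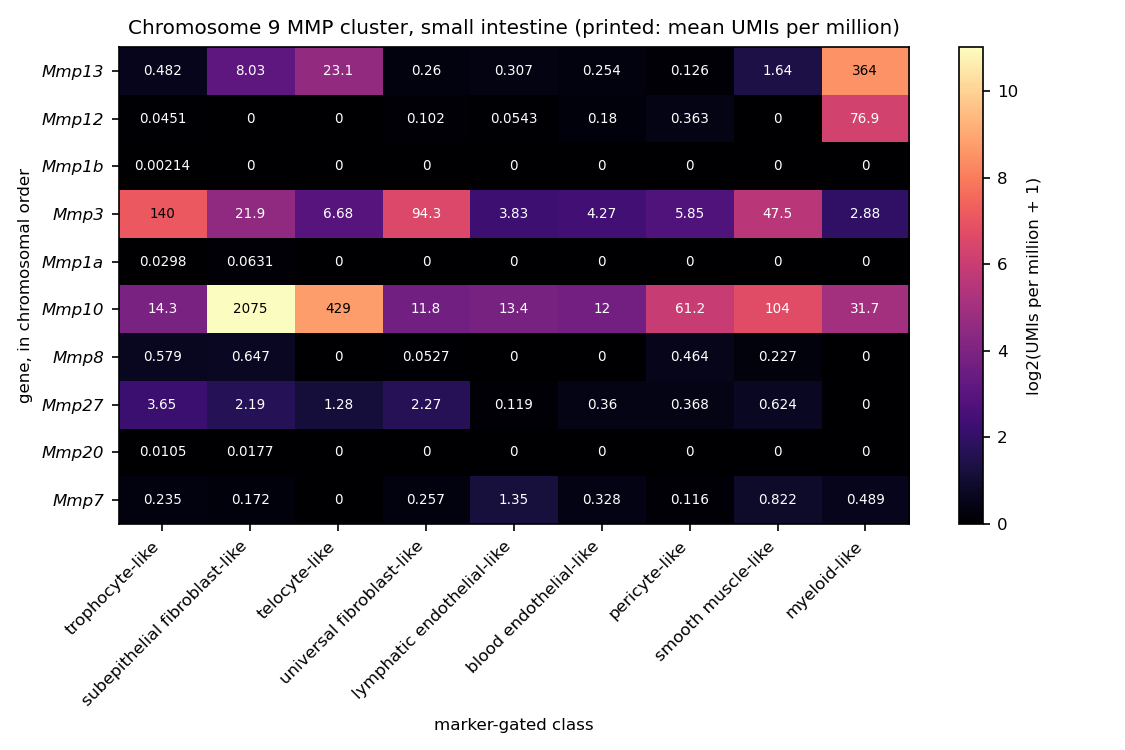
The 10 genes of the chromosome 9 group in chromosomal order (rows) against 9 marker-gated classes of the small intestine (columns), with the mean CPM over libraries printed in each cell and coloured as log2(value + 1). Mmp10 was highest in subepithelial fibroblast-like cells (2075), Mmp3 in trophocyte-like cells (140, with 94.3 in universal fibroblast-like cells) and Mmp13 in myeloid-like cells (364).

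The first comparison set subepithelial fibroblast-like against trophocyte-like cells of the same 4 small intestinal libraries. Mmp10 stood at 2180, 1890, 2227 and 2003 CPM in subepithelial fibroblast-like cells of the proximal replicates 1 and 2 and the distal replicates 1 and 2. In trophocyte-like cells of the same libraries it stood at 13.6, 15.9, 6.74 and 20.8. Every subepithelial value lay far above every trophocyte value. Over all genes tested, the groups did not overlap in 47.4%. The log2 fold change was 7.07 (SE 0.34, adjusted p = 2.1e-05, edgeR's quasi-likelihood test with library as a block). Of subepithelial fibroblast-like cells, 92.4% to 94.4% carried an Mmp10 UMI, or 85.2% to 87.4% with every cell thinned to 2500 UMIs. The corresponding thinned shares were 1.26% to 3.57% in trophocyte-like cells and 1.15% to 4.74% in lymphatic endothelial-like cells. Free RNA, taken from barcodes with at most 100 UMIs, held Mmp10 at 148 to 343 CPM in these libraries, and the low trophocyte shares were of the size of those in lymphatic endothelial-like cells, so no expression is read from them. Whether free RNA gives these shares was not tested.

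Mmp3 followed the opposite pattern. It stood at 163, 155, 127 and 117 CPM in trophocyte-like cells of the proximal replicates 1 and 2 and the distal replicates 1 and 2, and at 10.9, 11.9, 50.5 and 14.3 in subepithelial fibroblast-like cells. The groups did not overlap, and the distal replicate 1 was the highest of the subepithelial values. The log2 fold change of subepithelial over trophocyte-like cells was -3.18 (SE 0.43, adjusted p = 0.0012). Thus the nearby stromelysin genes Mmp3 and Mmp10 were highest in different fibroblast classes.

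Across the 51 genes, 41 passed the filter on low counts in this comparison, of which 9 were higher and 22 lower in subepithelial fibroblast-like cells. Over all genes tested 58.4% passed the same threshold, 28% higher and 30.4% lower. The median log2 fold change of the 41 genes was -0.67, against 0.00 over all genes tested. Adamts3, a procollagen N-proteinase that also processes VEGF-C, was at 158 ± 42.7 CPM in subepithelial fibroblast-like and 16.0 ± 4.77 in trophocyte-like cells (SD, n = 4, log2 fold change 3.09, SE 0.19). Its relative Adamts14 was also higher (39.9 against 20.5, log2 fold change 0.76), whereas Adamts2, the main procollagen N-proteinase of dermal collagen, was lower (log2 fold change -1.84). The procollagen N-proteinases therefore did not move together. At low levels, Mmp13 (8.03 against 0.482), Mmp28 (5.64 against 0.729), Adamts13, the von Willebrand factor protease (3.24 against 0.203), and Adamts18 (1.36 against 0.106) were also higher in subepithelial fibroblast-like cells. Mmp2 (gelatinase A) and Mmp14, the membrane protease that activates proMMP2, each rose by 0.26 on the log2 scale, and the call of Mmp2 was lost without either proximal library or the distal replicate 2.

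In subepithelial fibroblast-like cells 3 of 4 inhibitors and 5 of 5 ADAMTS-like genes were lower. Timp3 stood at 64.1, 90.2, 38.0 and 98.9 CPM in subepithelial fibroblast-like and at 346, 450, 307 and 524 in trophocyte-like cells of the proximal replicates 1 and 2 and the distal replicates 1 and 2, without overlap. Free RNA of these libraries held Timp3 at 760, 1179, 417 and 1261 CPM in the same order, above either class. The part of free RNA in these values was not tested. The log2 fold change of Timp3 was -2.74 (SE 0.13), that of Timp2 -1.42 (337 against 777) and that of Timp1 -1.18 (11 against 21.2), while Timp4 missed the threshold (log2 fold change -0.78, adjusted p of 0.069 by edgeR). Adamtsl1, or punctin, had the most negative fold change of the 41 genes (21.2 against 509, log2 fold change -4.73), followed by Adamtsl3 (18.4 against 213, -3.76). The values of Adamtsl2 (-0.86) and Adamtsl4 (43.7 against 46.7, -0.32) were nearer to 0. Adamts19 (117 against 763, -2.96), Adamts17 (-2), Adamtsl5 (-1.94) and Adamts1, a versican-cleaving protease (72.5 against 192, -1.62), were lower as well. Adamts5, an aggrecanase, had a log2 fold change of -0.11 and was not past the threshold. Beside these values, the summed level of 16 immediate early and heat shock genes was 1857 to 3041 CPM in subepithelial fibroblast-like and 9554 to 12057 in trophocyte-like cells of the small intestine, and 16 of the 16 were lower in the former. The part of that difference in the results was not tested.

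**Figure D3:**
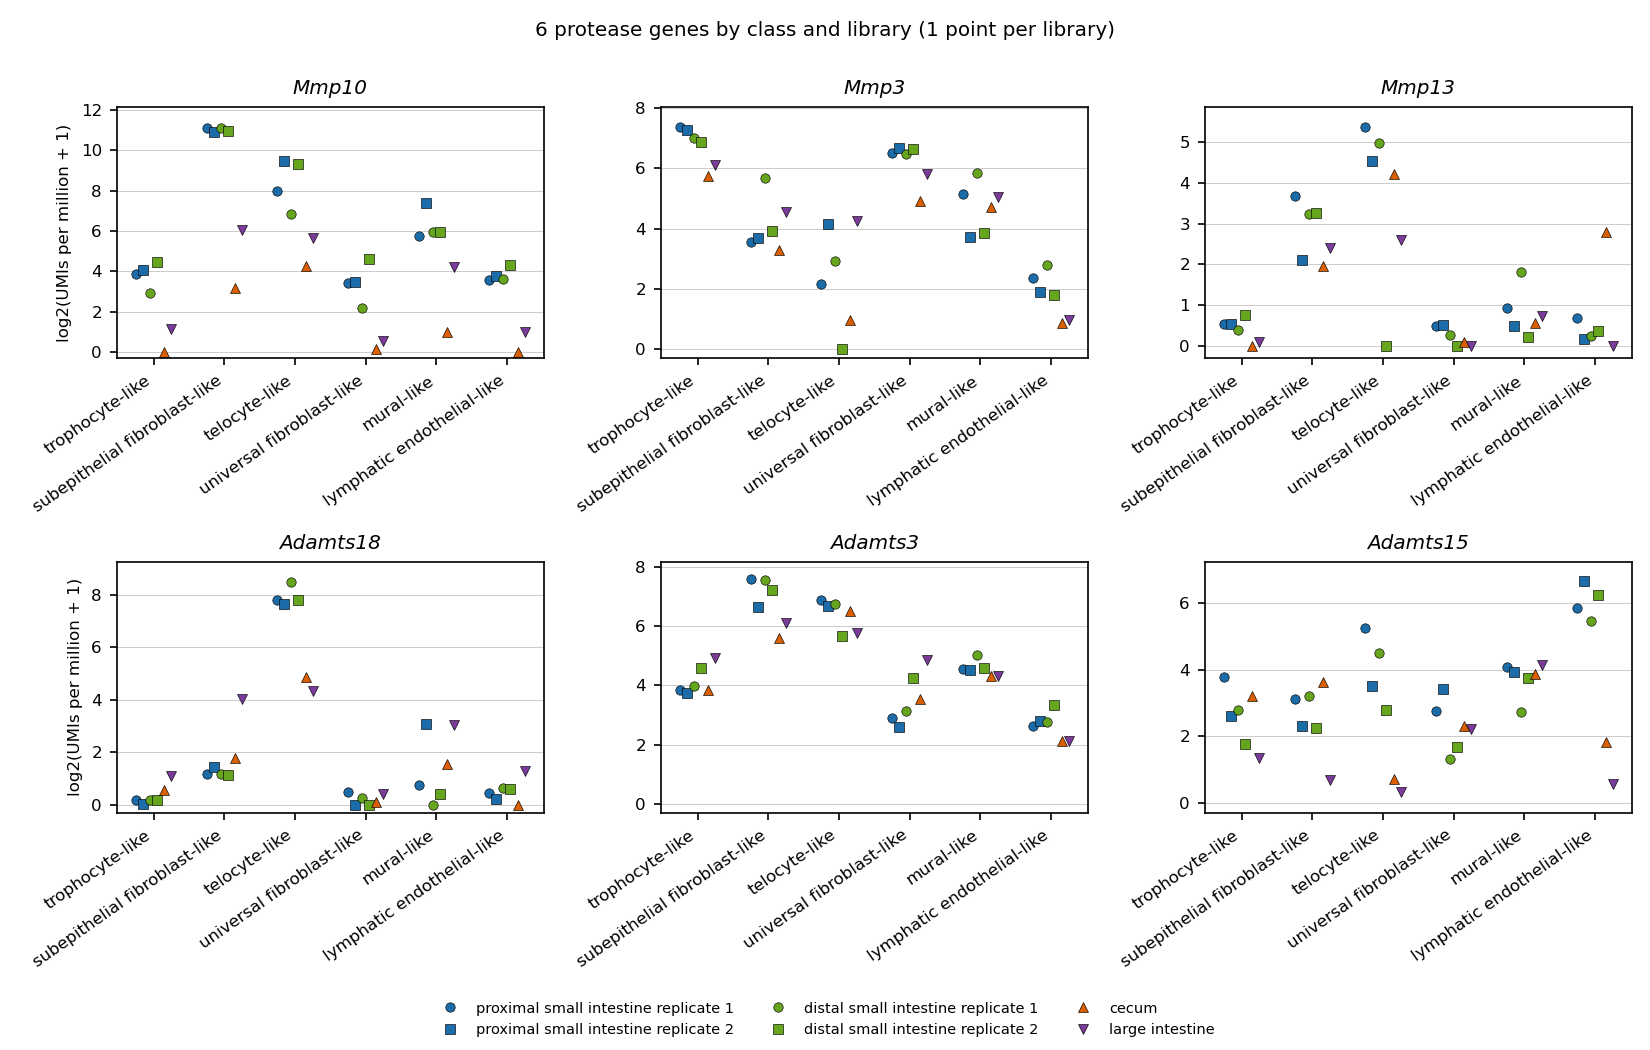
CPM, as log2(value + 1), of Mmp10, Mmp3, Mmp13, Adamts18, Adamts3 and Adamts15 in 6 classes, with 1 point per library (blue and green, small intestine; orange, cecum; purple, large intestine). Mmp10 in subepithelial fibroblast-like cells and Adamts15 in lymphatic endothelial-like cells were high in the 4 small intestinal libraries and low in the cecum and large intestine.

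Telocyte-like cells were compared with all other fibroblast-like cells of the 4 small intestinal libraries, which held 35 to 104 telocyte-like cells each. Of 46767 fibroblast-like cells in these libraries 34261 were trophocyte-like, so the comparison is mostly with trophocyte-like cells. Telocyte-like cells also carried a median of 4 to 5 subepithelial fibroblast markers over the 6 libraries. Adamts18, which encodes a protease that cuts fibronectin, stood at 221, 201, 360 and 225 CPM in telocyte-like cells of the proximal replicates 1 and 2 and the distal replicates 1 and 2. The other fibroblast-like cells had a mean of 0.399 ± 0.156 (SD, n = 4). Adamts18 was thus nearly restricted to telocyte-like cells among small intestinal fibroblast-like cells, with a log2 fold change of 9.14 (SE 0.28, adjusted p = 1.7e-13, edgeR). After thinning to 2500 UMIs, 22.9% to 44.4% of telocyte-like cells carried an Adamts18 UMI, against 0.0559% to 0.255% of lymphatic endothelial-like cells, and free RNA of all 6 libraries held it at 1.72 to 6.85 CPM.

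Of the 41 genes that passed the filter, 7 were higher and 18 lower in telocyte-like cells, with 15.9% of all genes tested past the threshold, 6.75% higher and 9.11% lower. The median log2 fold change was -0.54, against -0.08 over all genes tested. Adamts6 (368 ± 178 against 118, log2 fold change 1.37), Adamts13 (7.28 against 0.631, 3.19), Adamts3 (94.1 against 38.3, 1.22), Adamts15 (18.7 against 6.54, 1.30), Adamts9 (116 against 62.3, 0.74) and Mmp13 (23.1 against 1.60, 3.83) completed the higher group. Of its 7 genes 6 encode ADAMTS proteases, as do 19 of the 51 genes, and Adamts19, Adamts2 and Adamts1 were lower. Mmp13 was at 40.1, 22.0 and 30.5 CPM in 3 of the libraries and at 0 in the distal replicate 2, which had 35 telocyte-like cells. Among the lower genes were Mmp3 (6.68 against 113, log2 fold change -4.01, SE 0.31), Adamts19 (-2.59), Adamtsl5 (-2.37), Adamtsl3 (-2.10), Adamts2 (-1.96), Mmp16 (-1.86), Adamtsl2 (-1.74) and Mmp11 (-1.67). Timp3 (198 against 365, log2 fold change -1.15) and Timp2 (472 against 701, -0.74) were lower, as were Adamts1 (-0.80) and Mmp14 (-0.46, lost without either proximal library), and Timp1 was not past the threshold (-0.53, adjusted p = 0.29). Subepithelial fibroblast-like means of Timp3 (72.8), Timp2 (337), Adamts1 (72.5), Adamts19 (117), Adamtsl3 (18.4) and Adamts3 (158) lay on the other side of the telocyte-like means. Those of the other higher genes and of Mmp3, Adamts2, Mmp16, Mmp11 and Mmp14 lay on the same side. Telocyte-like and subepithelial fibroblast-like cells were not tested against each other. Mmp10 stood at 249, 713, 113 and 639 in telocyte-like cells and its log2 fold change of -0.08 was within the error (SE 0.18). Of the 16 immediate early and heat shock genes 10 were lower and 2 higher in telocyte-like cells. Blood endothelial markers summed to 133 to 392 CPM in telocyte-like and 23.6 to 43.2 in fibroblast-like cells of these libraries, and Adamts9 was at 1010 in blood endothelial-like cells. Over all 6 libraries, smooth muscle markers summed to 358 to 716 in telocyte-like and 108 to 242 in fibroblast-like cells. Adamts6 was at 560 in smooth muscle-like cells. The part of any of these lists in these values was not tested.

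Of the 4 inhibitors, Timp3 and Timp4 were higher and Timp1 lower in lymphatic endothelial-like than in fibroblast-like cells. Timp3 (chromosome 10, 86136236 to 86185371, plus strand) ranged from 2804 to 4461 CPM in lymphatic endothelial-like cells, with a median of 3900. In fibroblast-like cells of the same libraries it ranged from 309 to 452. The groups did not overlap, as in 35.6% of all genes tested, and the log2 fold change was 3.35 (SE 0.15, adjusted p = 3.1e-07, n = 6 libraries, edgeR). At least 99.2% of lymphatic endothelial-like cells in a library carried a Timp3 UMI, against 59.5% to 73.3% of fibroblast-like cells in the small intestine. Free RNA held Timp3 at 388 to 1261 CPM, below every lymphatic value. In the small intestine free RNA was at 417 to 1261, against 309 to 452 in fibroblast-like cells of the 6 libraries. Its part in the fibroblast-like levels and shares was not tested. Timp4 was higher in lymphatic endothelial-like cells in 6 of 6 libraries but at low levels (3.34 against 0.577, log2 fold change 2.42). Timp1, an inducible inhibitor, was lower (4.93 against 30.6, -2.66), and Timp2, which also takes part in the activation of proMMP2, did not pass the threshold (645 against 749, -0.19, adjusted p = 0.097). The 4 inhibitors thus differed in direction between these classes.

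**Figure D4:**
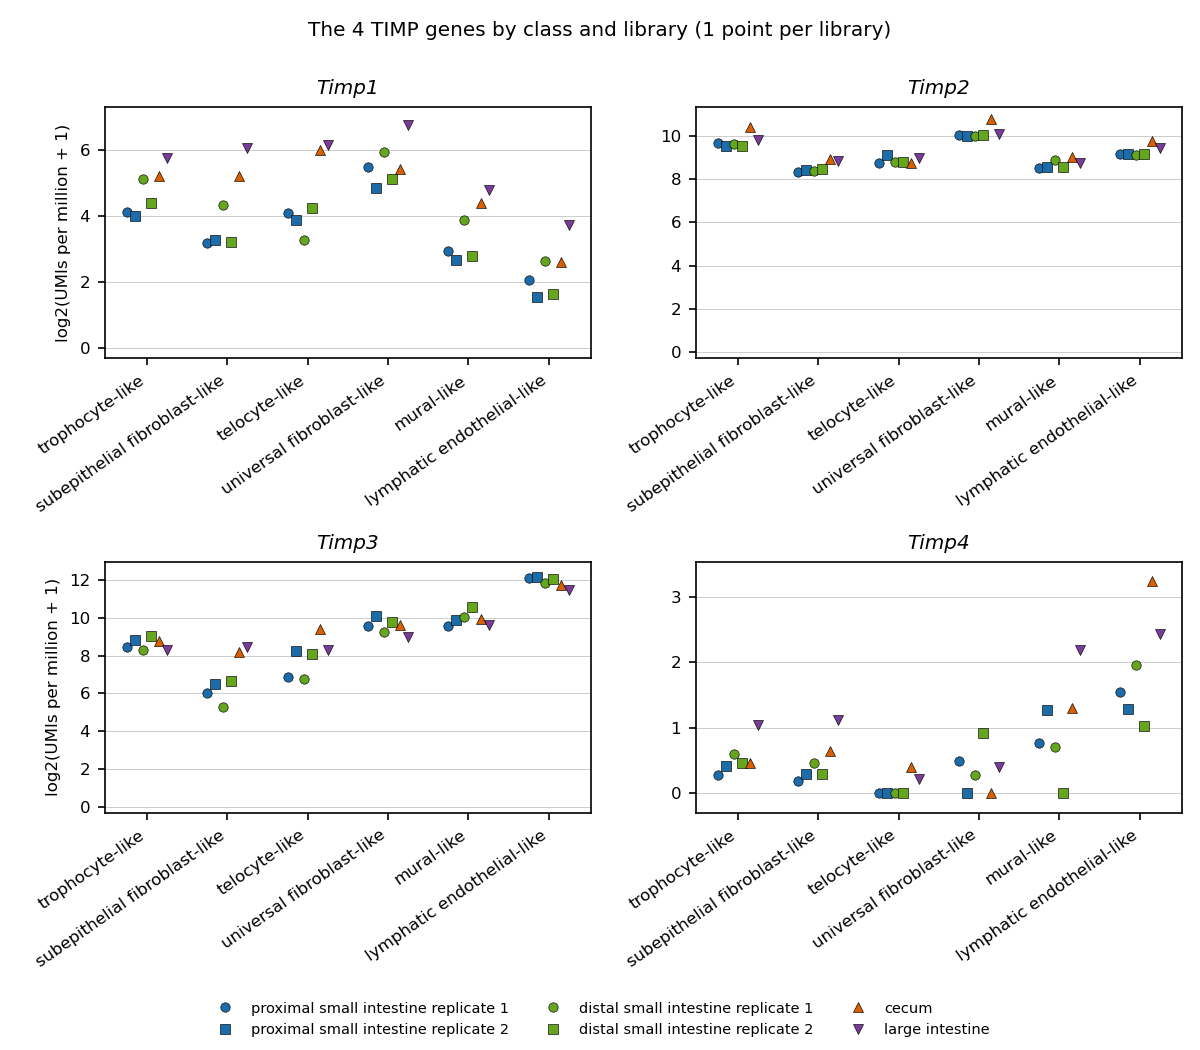
CPM, as log2(value + 1), of Timp1, Timp2, Timp3 and Timp4 in 6 classes, with 1 point per library (blue and green, small intestine; orange, cecum; purple, large intestine). Timp3 in lymphatic endothelial-like cells (2804 to 4461) lay above every fibroblast class, and Timp1 was higher in the cecum and large intestine in subepithelial fibroblast-like and telocyte-like cells.

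Of the proteases, most were lower in lymphatic endothelial-like than in fibroblast-like cells. Over all 42 genes that passed the filter 6 were higher and 31 lower, with 67.8% of all genes tested past the threshold, 31.8% higher and 36% lower. The median log2 fold change was -2.40, against -0.05 over all genes tested. Mmp2 was at 8.98 ± 3.02 CPM in lymphatic endothelial-like and 325 ± 55.5 in fibroblast-like cells (SD, n = 6, log2 fold change -5.10, SE 0.17). Mmp16 (2.62 against 152, -5.89), Mmp27 (-5.93), Mmp23 (-5.10), Mmp3 (2.86 against 86.1, -4.95), Adamts12, which cleaves cartilage oligomeric matrix protein (4.54 against 233, -5.63), Adamts19 (9.31 against 443, -5.58), Adamts2 (4.98 against 189, -5.44) and Adamtsl5 (-5.02) fell by similar factors. The summed level of the 7 fibroblast gate markers was 474 to 901 in lymphatic endothelial-like and 22482 to 32970 in fibroblast-like cells, a log2 ratio of -5.38, which is of the size of these fold changes. The part of fibroblast RNA in the low levels of these genes in lymphatic endothelial-like cells was not tested. Adamtsl3 (16.3 against 166, -3.32), Adamts5 (-2.52), Adamts1 (41.9 against 180, -2.09) and Mmp14 (82.1 against 134, -0.71) fell by less than the marker sum.

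Besides Timp3 and Timp4, 4 genes were higher in lymphatic endothelial-like cells. The ADAMTS-like gene Adamtsl1 was at 668 ± 219 CPM against 357 ± 146 in fibroblast-like cells (SD, n = 6, log2 fold change 0.93, SE 0.28), and the membrane proteases Mmp15 (3.21 against 0.640, 2.45) and Mmp25 (0.767 against 0.308, 1.38) were higher at low levels. Free RNA held Mmp15 at 0.823 to 5.03 and Mmp25 at 0 to 0.645 CPM. Mmp15 was at 60.8 in blood endothelial-like cells. Blood endothelial markers summed to 513 to 827 in lymphatic endothelial-like and 12.4 to 43.2 in fibroblast-like cells. The part of either source in these values was not tested. Adamts15, a versican-cleaving protease, was at 45.9 ± 39.2 against 6.07 ± 4.04 (log2 fold change 2.86, SE 0.70, adjusted p = 0.0064), but was higher in only 4 of 6 libraries. The libraries without that difference were the cecum and the large intestine.

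**Figure D5:**
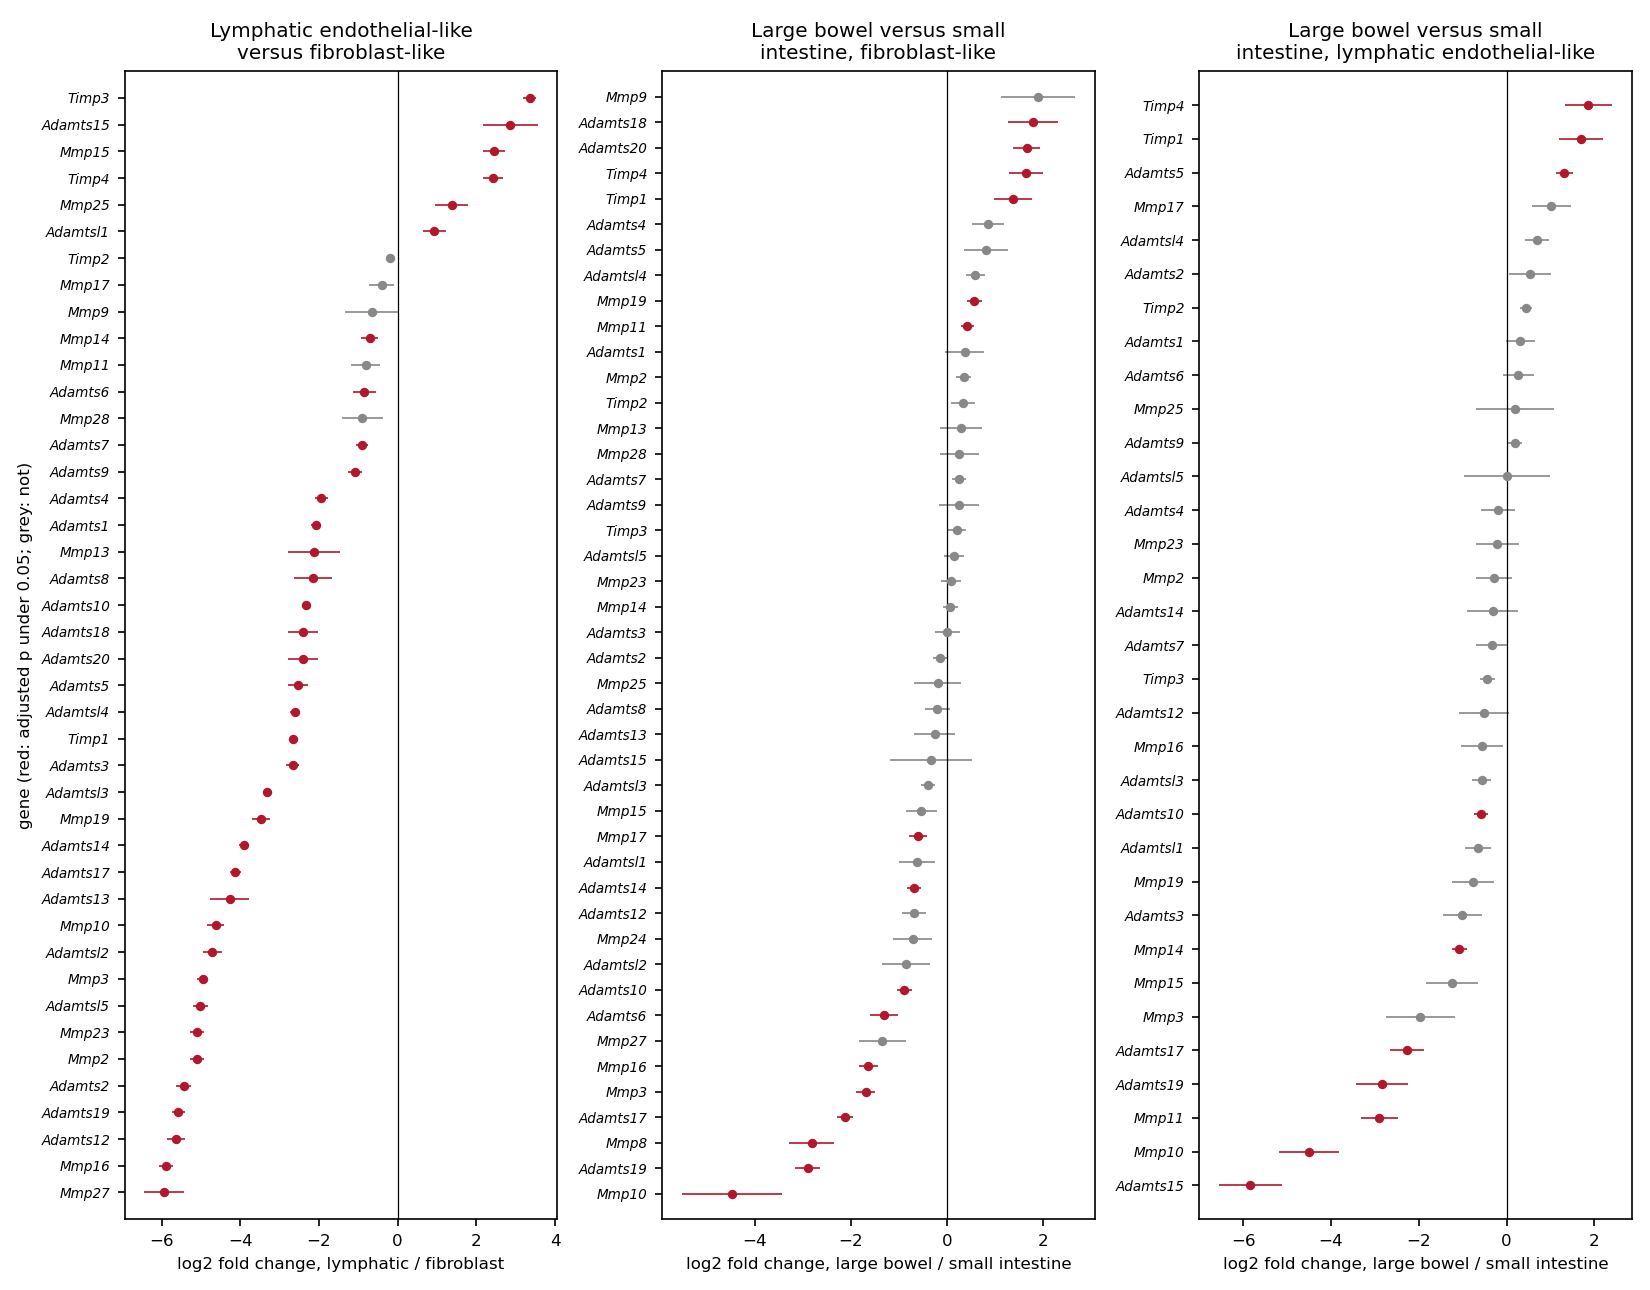
Log2 fold changes (points) with standard errors (bars) of the genes that passed the filter on low counts, for lymphatic endothelial-like over fibroblast-like cells (left) and for large bowel over small intestine in fibroblast-like (middle) and lymphatic endothelial-like cells (right), with adjusted p under 0.05 in red. Timp3 led the left panel at 3.35, and Mmp10 was at -4.48 in the middle panel. No difference in expression is read from the Mmp10 point of the right panel. Mmp7 is not drawn in the middle panel because it had no UMI in the large bowel.

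In universal fibroblast-like cells 3 of 4 inhibitors and 4 of 5 ADAMTS-like genes were higher than in the other fibroblast-like cells of the same 6 libraries. Timp2 was at 1179 ± 296 CPM against 711 ± 103 (SD, n = 6, log2 fold change 0.84), Timp3 at 770 ± 207 against 355 ± 47.9 (1.22) and Timp1 at 52.2 against 29.6 (1.00), while Timp4 was not past the threshold (-1.76, adjusted p = 0.14). Adamtsl1 (1011 ± 281 against 323 ± 161, 1.86), Adamtsl5 (67.9 against 26.9, 1.48) and Adamtsl3 (421 against 156, 1.47) were higher, as was Adamtsl4 (0.77), whereas Adamtsl2 was lower (-1.23). Also higher were Adamts5 (250 ± 206 against 88.3, 1.43), Adamts1 (291 against 172, 0.91) and Adamts2 (244 against 185, 0.54). Among the lower genes were Mmp10 (7.97 against 251, -4.98), Adamts18 (-4.52), Mmp13 (-3.71), Adamts3 (-1.52) and Mmp2 (196 against 334, -0.62). Free RNA held Mmp10 at 148 to 343 CPM in the small intestine, and no expression of Mmp10 is read in universal fibroblast-like cells. The part of free RNA in the sizes of the Mmp10, Adamts18 and Mmp13 fold changes was not tested. In all, 13 of 41 genes were higher and 10 lower, with 32.4% of all genes tested past the threshold, and the median log2 fold change was 0.02, against -0.04 over all genes tested. Mmp3 and Mmp14 were not past the threshold (0.05 and 0.02). Trophocyte markers summed to 2622 to 4622 CPM in universal fibroblast-like and 2899 to 3845 in trophocyte-like cells, so the classes overlap in these markers. Of the 16 immediate early and heat shock genes, 16 were higher in universal fibroblast-like cells, and their part in the higher levels of Timp1, Adamts1 and Adamts5 was not tested.

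Mural-like cells, which join pericyte-like and smooth muscle-like cells, were higher than fibroblast-like cells in 5 of 18 ADAMTS genes tested and lower in 7. Of the higher ones, Adamts6, Adamts9 and Adamts13 were also higher in telocyte-like cells. Adamts8 ranged from 7.38 to 14.2 CPM in mural-like and from 0.496 to 0.729 in fibroblast-like cells of the 6 libraries, without overlap, as in 9.88% of all genes tested (log2 fold change 4.24, SE 0.17, adjusted p = 1.3e-06). Mmp28 (7.89 against 1.62, 2.21), Adamts6 (310 against 95.6, 1.61), Mmp17 (11.3 against 4.14, 1.35), Timp3 (1001 ± 265 against 377, 1.31), Adamts9 (155 against 65.4, 1.21), Adamts1 (382 against 180, 1.05) and Adamts13 (4.86 against 0.624, 2.92) were also higher. Mmp2 (153 against 325, -1.16), Mmp14 (74.1 against 134, -0.93), Timp2 (426 against 749, -0.88), Timp1 (-1.34), Mmp3 (28.8 against 86.1, -1.65), Adamts2 (112 against 189, -0.94), Adamtsl1 (-1.44), Mmp23 (-1.22) and Mmp19 (-1.18) were lower. The other lower ADAMTS genes were Adamts17 (-1.65), Adamts19 (-1.36), Adamts3 (-0.84), Adamts14 (-0.67), Adamts12 (-0.61) and Adamts10 (-0.56). Timp4, Adamts5 and Adamtsl3 did not pass the threshold. Among the 42 genes that passed the filter 9 were higher and 22 lower, with 35.1% of all genes tested past the threshold and a median log2 fold change of -0.62, against -0.03 over all genes tested. The fibroblast gate markers summed to 8919 to 14325 CPM in mural-like cells, so these cells were not free of fibroblast transcripts.

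The next question was whether these genes differ between the large bowel (cecum and large intestine, 1 library each) and the small intestine (4 libraries). In fibroblast-like cells Mmp10 stood at 342, 484, 140 and 469 CPM in the small intestinal libraries, at 2.39 in the cecum and at 29.1 in the large intestine. The log2 fold change was -4.48 (SE 1.05, adjusted p = 0.020). Adamts19, an ADAMTS protease with a known role in heart valves, stood at 561, 652, 549 and 736 in the small intestine, 58.2 in cecum and 104 in large intestine (-2.90, SE 0.26). Adamts17, which acts on fibrillin microfibrils, stood at 299, 254, 246 and 225 against 52.7 and 60.6 (-2.13, SE 0.17). In each of these 3 genes both large bowel libraries lay below all small intestinal libraries, and over all genes tested the groups did not overlap in 50.7%.

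Mmp3 (33.7 ± 0.44 against 112 ± 17.6, log2 fold change -1.69), Mmp16 (61.4 against 198, -1.64), Adamts6 (47.2 against 120, -1.31), Adamts10 (85.0 against 164, -0.89) and Mmp8 (-2.82) were lower in the large bowel as well. Free RNA held Mmp8 at 0.161 to 0.703 CPM in the small intestine and at 0 in both large bowel libraries, so no difference in expression is read from its call. Mmp7 was at 0.283 ± 0.264 in the small intestine (SD, n = 4) and had no UMI in the large bowel. It passed the filter on low counts through the small intestine alone. Free RNA held Mmp7 at 29.2, 14.8, 0.659 and 4.40 CPM in the small intestine and at 0 in both large bowel libraries, so no fold is given and no difference in expression is read from its call. Timp1 stood at 15.9, 13.4, 33.5 and 17.5 in the small intestine and at 39 (cecum) and 64.3 (large intestine) in the large bowel, and was higher in the large bowel (log2 fold change 1.38, SE 0.39, adjusted p = 0.037). Free RNA held Timp1 at 13.3, 8.39, 33.9 and 13.7 CPM in the small intestine, 46.1 in cecum and 63.0 in large intestine. The part of free RNA in the Timp1 values was not tested. Timp4 (1.05 against 0.342, 1.64), Adamts20 (1.28 against 0.419, 1.66), Mmp19 (64.5 against 45.3, 0.56) and Mmp11 (23.8 against 18.4, 0.42) were higher too. The threshold was not passed by Timp2 (0.33), Timp3 (0.21), Mmp2 (0.34), Mmp14 (0.07), Adamts1 (0.36), Adamts2 (-0.15), Adamts5 (0.82) or Adamtsl3 (-0.39). Of 45 genes, 6 were higher and 11 lower, Mmp7 included, with 30.1% of all genes tested past the threshold and a median log2 fold change of -0.15, against -0.01 over all genes tested. The calls of Timp1 and Mmp7 were lost without the cecum, without the large intestine or without the proximal replicate 2, that of Timp1 also without the proximal replicate 1 or the distal replicate 2, that of Timp4 without the large intestine, that of Mmp11 without any library but the proximal replicate 2, and that of Mmp19 without any library but the large intestine and the distal replicate 1. Hashtags 1 to 3 were used in cecum and large intestine and, within the small intestine, in the libraries numbered 1. Within these 4 libraries 5 of the 17 calls held, those of Mmp16, Adamts17, Mmp3, Mmp8 and Adamts19, while those of Mmp10 and Timp1 were lost. The 16 immediate early and heat shock genes summed to 29165 CPM in fibroblast-like cells of the cecum and to 7623 to 11500 in the other libraries. Adamts5 was at 233 in the cecum and at 57.6 to 94.5 elsewhere, and Adamts1 at 307 against 103 to 192. The part of that list in the values of the cecum was not tested.

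The mix of fibroblast classes differed between regions, with 3010 telocyte-like cells in the large intestine and 413 in the cecum, against 35 to 104 in a small intestinal library. Trophocyte-like cells were 34261 of 46767 fibroblast-like cells in the small intestine and 4018 of 22158 in the large bowel. Of the genes named as lower in the large bowel, Adamts19, Adamts17, Mmp3, Mmp16 and Mmp8 had their highest class mean in trophocyte-like cells, whereas Mmp10, Adamts6 and Adamts10 did not. The regions were therefore also compared within each class, which was added after the data had been seen. Whether a gated class holds the same cells in each region was not tested. Mmp10 was lower in the large bowel in subepithelial fibroblast-like (log2 fold change -5.67) and telocyte-like cells (-3.52). In subepithelial fibroblast-like cells it was at 7.92 CPM in cecum and 65.0 in large intestine, against 1890 to 2227 in the small intestine, and 0.966% to 5.02% of the large bowel cells carried an Mmp10 UMI after thinning. Mmp10 also passed the threshold in trophocyte-like and universal fibroblast-like cells. Its values in these cells of the small intestine are of the size from which no expression was read above, so no fold is given. Adamts19 was lower in trophocyte-like (-2), subepithelial fibroblast-like (-2.50) and telocyte-like cells (-4.48) and did not pass the threshold in universal fibroblast-like cells (-1.29, adjusted p = 0.096).

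Other genes changed in some classes. Adamts18 stood at 28.5 in telocyte-like cells of the cecum and at 19.0 in those of the large intestine, against 201 to 360 in the small intestine (log2 fold change -3.36, adjusted p = 0.00037). In subepithelial fibroblast-like cells it was higher in the large bowel (2.43 in cecum and 15.3 in large intestine against 1.36 ± 0.243, log2 fold change 2.85). In trophocyte-like cells it passed the threshold as well, at 0.479 and 1.13 against 0.106 ± 0.0606 (log2 fold change 2.93, adjusted p = 0.018). Free RNA held Adamts18 at 1.98 to 2.93 CPM in the small intestine, 1.72 in cecum and 6.85 in large intestine, above every trophocyte-like value and above the subepithelial fibroblast-like values of the small intestine. No expression is read in trophocyte-like cells, and the part of free RNA in the subepithelial difference was not tested. Over all fibroblast-like cells Adamts18 was higher in the large bowel (6.46 against 1.90, 1.79). Telocyte-like cells, its highest class, were 263 of 46767 fibroblast-like cells in the small intestine and 3423 of 22158 in the large bowel. The part of this mix in the difference over all fibroblast-like cells was not tested. Timp3 was higher in large bowel subepithelial fibroblast-like cells, at 294 in cecum and 351 in large intestine against 38.0 to 98.9 (log2 fold change 2.32, adjusted p = 0.0023), and did not pass the threshold in trophocyte-like (0.03), telocyte-like (1.39, adjusted p = 0.059) or universal fibroblast-like cells (-0.23). Timp1 was higher in trophocyte-like (1.17), subepithelial fibroblast-like (2.40) and telocyte-like cells (2.31), and did not pass the threshold in universal fibroblast-like cells (0.86, adjusted p = 0.14). In trophocyte-like cells Timp1 was at 36.1 in cecum and 53.2 in large intestine, below free RNA of these libraries (46.1 and 63.0). It was at 36.2 and 65.0 in subepithelial fibroblast-like and at 62.9 and 69.6 in telocyte-like cells of the same libraries. Of these, the cecum value of subepithelial fibroblast-like cells lay below free RNA of its library. The part of free RNA in the Timp1 values of these classes was not tested. In subepithelial fibroblast-like cells the immediate early and heat shock genes summed to 18354 CPM in cecum and 11108 in large intestine against 1857 to 3041 in the small intestine, and their part in these values was not tested. Mmp3 was lower in trophocyte-like (-1.12) and universal fibroblast-like cells (-1.11), with -0.29 in subepithelial fibroblast-like and 0.51 in telocyte-like cells. Adamts5, not called over all fibroblast-like cells, was higher in trophocyte-like (1.35) and universal fibroblast-like (1.83) and lower in telocyte-like cells (-1.38). Likewise, Adamts2 (1.27) and Timp2 (0.68) were higher in subepithelial fibroblast-like and Adamts1 (1.01) in trophocyte-like cells. Adamtsl3 was lower in subepithelial fibroblast-like (-1.03) and telocyte-like cells (-2.62). Mmp2 and Mmp14 passed in no class. Differences between classes in these regional effects were not tested. The numbers past the threshold were 17 of 44 genes in trophocyte-like (26.1% of all genes tested), 21 of 40 in subepithelial fibroblast-like (38.7%), 13 of 30 in telocyte-like (12.9%) and 8 of 32 in universal fibroblast-like cells (10.9%).

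In lymphatic endothelial-like cells the regional comparison rested on 223 cells in cecum and 244 in large intestine. Adamts15 (chromosome 9, 30810451 to 30833863, minus strand) stood at 56.1, 99.4, 42.8 and 73.8 CPM in the small intestinal libraries, at 2.53 in the cecum, and at 0.484 in large intestine. The groups did not overlap, as in 47.6% of all genes tested. Adamts15 passed the filter on low counts through the small intestine alone, and its large bowel values rest on few UMIs. The log2 fold change of -5.83 (SE 0.72, adjusted p = 0.00081, edgeR) is therefore not an exact size. After thinning, 8.94% to 20.9% of small intestinal and 0.410% to 0.897% of large bowel lymphatic endothelial-like cells carried an Adamts15 UMI. Mmp14 stood at 97.5, 97.8, 90.5 and 112 in the small intestine, 37.9 in cecum and 56.6 in large intestine (-1.08, SE 0.16, adjusted p = 0.0026). Mmp11 (2.17 against 13.6, -2.90), Adamts17 (-2.26), Adamts19 (-2.84) and Adamts10 (-0.58) were lower too. Mmp10 (0.484 against 13.4) was also called lower, but it passed the filter on low counts through the small intestine alone. Free RNA was also higher in the small intestine for Mmp10 (148 to 343 CPM against 0.985 and 30.8), Adamts19 (337 to 440 against 58.1 and 84.8) and Adamts17 (108 to 170 against 39.4 and 45.5). For Mmp10 no fold is given and no difference in expression is read from its call. Adamts5 stood at 12.2, 10.4, 15.2 and 12.4 in the small intestine, 32.9 in cecum and 30.0 in large intestine (1.31, SE 0.19, adjusted p = 0.0019). Timp1 (8.58 against 3.10, 1.69) and Timp4 (6.39 against 1.82, 1.86) were higher as well. The immediate early and heat shock genes summed to 26261 CPM in lymphatic endothelial-like cells of the cecum and to 8873 to 16662 in the other libraries, and their part in these values was not tested. Timp3 (3117 against 4149, -0.44, adjusted p = 0.12), Timp2 (0.44), Mmp2 (-0.29), Mmp3 (-1.96), Adamts1 (0.31), Adamts2 (0.54) and Adamtsl3 (-0.57) did not pass the threshold. Of 33 genes, 3 were higher and 7 lower, with 19.3% of all genes tested past the threshold, 9.04% higher and 10.3% lower, and a median log2 fold change of -0.34, against -0.02. After subtraction of free RNA 6 genes passed, namely Adamts15, Mmp14, Mmp11, Adamts5, Timp4 and, not called before, Adamts3. Adamts10 and Timp1 did not pass, and Mmp10, Adamts17 and Adamts19 fell under the filter on low counts and were not tested. Without the cecum there were 6 calls. The calls of Timp1, Timp4 and Adamts10 were lost without any 1 library other than the distal replicate 1, those of Adamts17 and Adamts19 without the large intestine, and that of Adamts19 also without the cecum.

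Within the small intestine, the 2 distal libraries were compared with the 2 proximal libraries. No gene of these families passed the threshold by edgeR without a replicate block in fibroblast-like (45 tested), lymphatic endothelial-like (36 tested) or trophocyte-like cells (43 tested), where 0.0105%, 0% and 0.0892% of all genes tested did. Some genes passed with a replicate block, as given in the last section. Without that block, 0.00525% of all genes tested passed in each direction in fibroblast-like cells. In trophocyte-like cells 0.0335% were higher and 0.0558% lower in the distal libraries, also without it. An unadjusted p under 0.05 was reached by 3, 6 and 8 genes of these families, and by 3.47%, 4.11% and 6.23% of all genes tested. By limma-voom the count was 0 in each class, and by DESeq2 it was 0, 0 and 2, the latter being Mmp16 and Adamtsl1. In fibroblast-like cells Timp1 had a log2 fold change of 0.86 (SE 0.36), Timp2 of 0.09, Timp3 of 0.11 and Mmp3 of -0.17. The 2 distal values of Timp1 (33.5 and 17.5) lay above both proximal values (15.9 and 13.4). Over all genes tested, the groups did not overlap in 26.2%.

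Genes that act on or with these enzymes were counted from fixed lists. The counts stand beside the shares of all genes tested past the threshold, which were 67.8% for lymphatic endothelial-like, 58.4% for subepithelial fibroblast-like, 15.9% for telocyte-like, 32.4% for universal fibroblast-like and 35.1% for mural-like cells, and 30.1% and 19.3% between regions in fibroblast-like and lymphatic endothelial-like cells. Of 16 tested genes that control MMPs (activators, protease inhibitors and the plasminogen system), 4 were higher and 9 lower in lymphatic endothelial-like than in fibroblast-like cells, among them the proprotein convertase Pcsk5 (log2 fold change -5.54), the matrix protein Sparc (-5.45) and Lrp1, a clearance receptor for MMPs and TIMP complexes (9.54 ± 2.24 against 440 ± 69.6 CPM, log2 fold change -5.52). Of 13 tested ADAMTS substrates and their processing partners 1 was higher and 12 lower, among them the proteoglycan Vcan (7.72 against 339, -5.36). The collagens Col1a1, Col1a2 and Col3a1 of that list are also gate markers. Of 12 ADAM genes 3 were higher and 5 lower, near the share over all genes, with Adam10, a membrane sheddase, at 425 ± 56.4 against 100 ± 25.8 (2.14) and Adamdec1 at 126 against 4544 (-5.20).

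In telocyte-like cells, 3 of 15 MMP control genes were higher and 8 lower than in other fibroblast-like cells of the small intestine. The higher genes were Plau, the urokinase that generates plasmin (95.2 ± 34.1 against 1.5, log2 fold change 5.90), Papln, an ADAMTS-related extracellular protein (63.9 against 1.03, 5.79), and Pcsk6, a proprotein convertase (675 ± 120 against 59.4, 3.33). In subepithelial fibroblast-like cells 1 of 15 was higher than in trophocyte-like cells, Papln (3.27 against 0.449, 2.63), and 12 were lower. Between regions, 7 of 15 were higher and 1 lower in large bowel fibroblast-like cells, including Plau (31.0 against 2.06, 3.95), Papln (2.52), Thbs2 (1.53) and Pcsk6 (1.03), and the lower gene was Reck, a membrane inhibitor of MMPs (46.1 against 100.5, -1.08). Telocyte-like cells, in which Plau, Papln and Pcsk6 were higher, were more numerous in the large bowel libraries, and their part in these calls was not tested. In large bowel lymphatic endothelial-like cells 2 of 14 were higher, including Serpine2 (140 against 28.2, 2.29), and 2 were lower, Thbs1 (-1.47) and Plau (-1.22). In universal fibroblast-like cells 8 of 15 MMP control genes were higher and 0 lower, and in mural-like cells 1 was higher and 6 lower. Higher and lower ADAMTS substrates, of 13 tested, numbered 2 and 9 in subepithelial fibroblast-like, 1 and 8 in telocyte-like, 6 and 2 in universal fibroblast-like and 2 and 10 in mural-like cells, and 2 and 1 in large bowel fibroblast-like cells. For ADAM genes the numbers were 3 and 5 of 11, 3 and 3 of 11, 5 and 4 of 12, 2 and 5 of 12, and 4 and 2 of 12 in the same order. In large bowel lymphatic endothelial-like cells 0 of 11 substrates were higher and 2 lower, and 1 of 10 ADAM genes was higher and 1 lower. Adam12 was the lower one (28.3 against 208, -2.95).

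Classes outside the tests are given by their 3 genes of these families with the highest mean level, which names them and compares no gene with another. Free RNA held Timp3 at 388 to 1261, Timp2 at 548 to 943 and Adamts6 at 24.1 to 96.2 CPM, and its part in the levels of these small classes was not tested. In blood endothelial-like cells these were Timp3 at 2043 ± 413 CPM, Adamts9, a versican-cleaving protease, at 1010 ± 256 and Adamts1 at 327 ± 34.0 (SD, n = 5). In pericyte-like cells they were Timp3 (1329 ± 658), Adamts1 (447 ± 232) and Timp2 (349 ± 78.6), and in smooth muscle-like cells Timp3 (732 ± 145), Adamts6 (560 ± 216) and Timp2 (502 ± 60.6), each over 6 libraries. Glia-like cells had Timp3 at 3095 ± 592, Timp2 at 514 ± 41.2 and Adamts1 at 408 ± 145 (SD, n = 2). Myeloid-like cells had Mmp13 at 364 ± 280, Mmp14 at 151 ± 70.5 and Timp2 at 113 ± 62.6 (SD, n = 4), and T or innate lymphoid-like cells Adamts6 at 140 ± 42.1, Timp2 at 69.4 ± 32.1 and Timp3 at 33.3 ± 16.9 (SD, n = 4). B or plasma-like cells had Adamts6 at 80.9 ± 60.9, Timp3 at 30.1 ± 25.9 and Timp2 at 24.7 ± 12.5 (SD, n = 6), and the epithelial-like cells of 1 library had Timp3 at 165, Mmp15 at 38.1 and Mmp7 at 25.4.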

How the data were processed

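Per the file headers and the methods, the authors mapped the 6 droplet libraries to mm39 extended by tdTomato, and the deposited values are raw UMI counts for every barcode. The processing notes name Cell Ranger 8.1.0 and the file headers 8.0.1. Counting of intronic reads and of strand is not given in the sources used here, so Timp2, Mmp14, Adamts2, Adamts9, Adamts16, Adamts17, Adamtsl1 and Adamtsl3, which share a strand with an overlapping gene, are uncertain to that extent. The depth per library is given with the results.

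Cells were kept at the limits of the methods (1000 to 7500 genes, 2500 to 40000 UMIs, under 10% mitochondrial UMIs). Doublets were predicted with Scrublet in scanpy at 0.8% per 1000 cells and removed (4.91% to 11.4% of cells), in place of DoubletFinder, and ambient RNA was not subtracted. A lineage needed at least 3 to 5 of its markers, no other lineage, and, outside mural and fibroblast classes, at most 40 fibroblast-marker UMIs per 10000. Fibroblast subclasses needed 3 or 4 further markers and were assigned in the order telocyte-like, subepithelial fibroblast-like, universal fibroblast-like and trophocyte-like. These thresholds were set after the data had been seen, and the members and lists were chosen with earlier results of these data known.

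UMIs were summed per library and class (at least 20 cells), filtered with filterByExpr (minimum count 10), scaled by TMM and tested with edgeR's quasi-likelihood test, with library as a block between classes and no block between regions. P-values were adjusted by Benjamini-Hochberg over all genes tested, at 0.05. The standard error is the fold change divided by the square root of F. The tests were checked on simulated data. The interaction and within-class tests were later additions, chosen with the data in view. Floors of 3 counts and shares of cells cover counting error only.

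Named were Timp1 to Timp4, Mmp2, Mmp3, Mmp14, Adamts1, Adamts2, Adamts5 and Adamtsl3, up to 8 genes per direction whose libraries did not overlap, the 3 highest genes of each class, and up to 4 genes per list, of which 1 is not reported here. Others named, such as Adamts15 and Mmp10 where libraries overlapped, were chosen after their values had been seen. Alternatives were limma-voom, DESeq2, RLE scaling, no count filter, no doublet removal, a stricter gate, 10% of each sum subtracted along the free RNA profile, blocks removed or added, each library left out and 1 hashtag set alone. Software was Python 3.11.15 with scanpy 1.11.5, numpy 2.4.6, scipy 1.17.1, pandas 2.3.3 and matplotlib 3.10.9, and R 4.3.3 with DESeq2 1.42.0, limma 3.58.1 and edgeR 4.0.16.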

Additional observations from a re-analysis of the deposited data

Results flagged for a closer look

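The difference between large bowel and small intestine was tested for a difference between lymphatic endothelial-like and fibroblast-like cells, by an interaction term in edgeR over the 6 libraries, in 42 genes of these families. Of these, 5 passed an adjusted p of 0.05, or 11.9%, against 10.9% of all genes tested. For Mmp14 the log2 effect of the large bowel was lower by -1.18 in lymphatic endothelial-like than in fibroblast-like cells (SE 0.15, adjusted p = 0.0033), and for Mmp11 by -3.34 (SE 0.44, adjusted p = 0.0037). In fibroblast-like cells the large bowel effect was 0.07 for Mmp14 and 0.42 for Mmp11. In the lymphatic class Mmp14 was at 37.9 and 56.6 CPM in the cecum and large intestine against 90.5 to 112 in the small intestine. For Adamts6 the difference between the effects was 1.60 (SE 0.24, adjusted p = 0.0068), with a fall past the threshold in fibroblast-like cells. Timp3 (-0.66, SE 0.15, adjusted p = 0.030) and Adamts4 (-0.88, SE 0.21, adjusted p = 0.036) passed as well, although neither passed the threshold in either class alone. For Adamts15 the difference of -5.23 (SE 1.63) did not pass (adjusted p = 0.083).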

How the results depend on the processing

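Of 101 named results past the threshold in the main test, 75 kept their direction and stayed past it in every alternative that tested them. Of the others 1 reversed, Mmp3 between regions within telocyte-like cells (0.51, adjusted p = 0.74). Settings in which a gene fell under the filter on low counts were not counted. Named genes that were not past the threshold in the main test were left out, and some of these changed direction within a class. Over all genes tested, 5440 passed the threshold in the main test of universal fibroblast-like cells and 2107 to 5656 in the alternatives. Between regions in fibroblast-like cells these counts were 5911 and 1287 to 7013. The number of genes of these families past the threshold was 15 without the library block for universal fibroblast-like cells (23 with it). Between regions in fibroblast-like cells it was 17, against 5 within 1 hashtag set and 8 within universal fibroblast-like cells. In lymphatic endothelial-like cells it was 10, against 6 after subtraction of free RNA and 6 without the cecum. For the distal against the proximal small intestine it was 0, against 3 in fibroblast-like (Mmp7, Adamts15, Timp1), 3 in lymphatic endothelial-like (Adamts4, Mmp2, Adamts19) and 6 in trophocyte-like cells under a replicate block, 2 in lymphatic endothelial-like cells without a filter on low counts and 2 in trophocyte-like cells by DESeq2. Over all genes tested, the highest counts past the threshold in any alternative of these comparisons were 272, 297 and 827, in the same order of classes. The replicate numbers are not stated to pair libraries. Deviations of genes from the mean of their region correlated at 0.484, 0.331 and 0.480 between same-numbered libraries, in the order of these classes. With 2 libraries per region, both same-numbered pairs give the same value by construction. With each library left out the counts were 34 to 39 (lymphatic endothelial-like), 27 to 29 (subepithelial), 22 to 25 (telocyte-like), 21 to 23 (universal), 28 to 31 (mural), 12 to 15 and 6 to 11 (regions, fibroblast-like and lymphatic endothelial-like), and 0 to 0, 0 to 1 and 0 to 1 (distal against proximal, with 1 gene without the proximal replicate 2 in lymphatic endothelial-like and without the distal replicate 2 in trophocyte-like cells). Over all genes tested, the counts with each library left out were 10148 to 12512 (lymphatic endothelial-like), 8006 to 8866 (subepithelial) and 1822 to 2730 (telocyte-like). They were 4439 to 4835 (universal) and 4667 to 5888 (mural). The stricter gate left no library with 20 telocyte-like cells and was not run there. The cause of these changes was not tested.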
